A study of Mus musculus with 4 samples.

Results

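The genes described here make, package, break down and sense monoamines, and were taken as 9 named genes among the 22564 gene rows of an islet RNA-seq table. They were Th, Tph1, Tph2 and Ddc for synthesis, Slc18a1 and Slc18a2 for storage, Maoa and Maob for breakdown, and the receptor gene Drd2. All 9 were found, with 1 row each. Pancreatic islets came from 2-week-old mice of the 129sv strain, and each library pooled more than 400 islets. There were 2 libraries of a knockout labelled Ngn3Mettls KO (KO) and 2 of the wild type (WT). The label does not spell out the targeted genes or exons, and the labels name no Cre line, litter, sex or number of animals behind a pool. P-values therefore measure the spread between these pools, which may be technical.

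Catecholamines are made from tyrosine by tyrosine hydroxylase (Th), the rate-limiting step, and aromatic L-amino acid decarboxylase (Ddc), which yields dopamine. Serotonin is made from tryptophan by tryptophan hydroxylase (Tph1 in peripheral tissues, Tph2 in neurons) and again Ddc. The vesicular monoamine transporters (Slc18a1 and Slc18a2) load amines into secretory granules, and the mitochondrial monoamine oxidases (Maoa and Maob) deaminate them. In mouse islets dopamine acting on its receptors dampens insulin secretion, tyrosine hydroxylase has been described in some endocrine cells as well as in sympathetic fibres, and Tph1 is known for its induction in pregnancy.

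The depth behind the values was 4057724 to 5232235 fragments per library, recovered from the deposited estimated counts by dividing out a scaling step in each library. Values below are CPM, counts scaled to a common library total after TMM normalisation, unless FPKM (fragments scaled to transcript length and library size) is named. Tests are edgeR's quasi-likelihood test over 12789 genes, and a call means a p below 0.05 after Benjamini-Hochberg adjustment. A positive log2 fold change means a higher level in KO. At that threshold 0.227% of genes were called (29 genes), 0.133% higher and 0.0938% lower in KO. Of the genes the knockout name points to, Mettl3 was at 29.3 and 17.1 CPM in WT against 18.6 and 17.2 CPM in KO, and Mettl14 at 21.4 and 21.8 CPM in WT against 14.1 and 15.6 CPM in KO. Neurog3 was at 4.93 and 7.19 CPM in WT against 6.33 and 9.12 CPM in KO. None of the 3 was called, and such whole-gene values cannot show the loss of an exon. The islet hormone genes Gcg and Ins2 were abundant in every library, and none of the 10 beta cell markers was at 0 in all of them.

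In short, Th was higher and Ddc and Maob were lower in both KO libraries than in both WT libraries, by 1.88-fold for Th, 1.69-fold for Ddc and 1.95-fold for Maob. Slc18a1 and Maoa overlapped between the groups. Tph1, Tph2, Slc18a2 and Drd2 were at or below 3 fragments in every library and were not tested. None of the 5 tested genes was called by edgeR (0 of 5, against 0.227% of all genes), nor by limma on log2(FPKM + 1), which called 0% of all genes, while DESeq2 called 3, Th, Ddc and Maob, against 1.20% of all genes. Th, Ddc and Maob had an unadjusted p under 0.05, as did 12.6% of all genes. The groups did not overlap for 3 of the 5 tested genes, while 45.0% of all genes tested had non-overlapping groups, 22.7% with KO higher and 22.3% with KO lower.

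**Figure D1:**
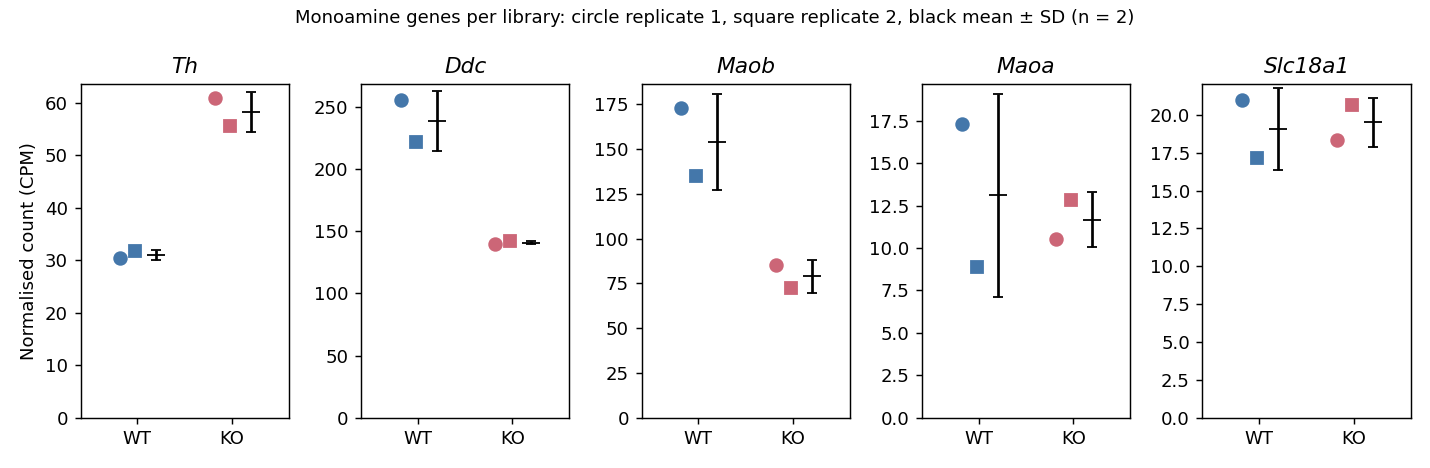
Normalised count (CPM, y axis from 0) of the 5 tested monoamine genes in each WT and KO library. Circles are replicate 1, squares replicate 2, and black bars the mean ± SD (n = 2); both KO points lie above both WT points for Th and below them for Ddc and Maob, and the groups overlap for Maoa and Slc18a1.

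Th encodes tyrosine hydroxylase and lies on the minus strand of chromosome 7 (GRCm38, 142892752 to 142931128). In WT it was at 30.4 CPM in replicate 1 and 31.7 CPM in replicate 2, against 61.0 and 55.6 CPM in KO replicates 1 and 2. Both KO libraries were higher than both WT libraries, and the replicates of each group lay close together. The group means were 58.3 ± 3.81 CPM in KO and 31.1 ± 0.927 CPM in WT (SD, n = 2). The log2 fold change was 0.91 ± 0.15 SE with an edgeR adjusted p of 0.0820, the 48th smallest p-value of the 12789 genes. Before normalisation these values rest on 321 and 222 fragments in KO and 158 and 137 in WT. Leaving out single libraries moved the log2 fold change between 0.83 and 0.97, and it was called without WT replicate 2 (edgeR adjusted p = 0.0226), where 1.85% of all genes were. The DESeq2 adjusted p was 0.0286.

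The 250 bases before the RefSeq start site of Th (chr7:142899996-142900245, minus strand, GRCm38.p6) are shown because the tested synthesis genes, Th and Ddc, had fold changes of opposite sign. This window lies inside the annotated Th span, whose upstream end is at 142931128. Starts further upstream were not examined. Capitals mark matches to any of 6 short motifs searched on both strands.
Th promoter: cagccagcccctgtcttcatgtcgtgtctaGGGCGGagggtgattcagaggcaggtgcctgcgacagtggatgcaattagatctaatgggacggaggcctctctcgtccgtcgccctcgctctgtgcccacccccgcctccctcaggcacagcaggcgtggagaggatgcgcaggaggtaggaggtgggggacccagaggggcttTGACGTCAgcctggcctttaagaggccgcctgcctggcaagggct
The motifs were the cyclic AMP response element TGACGTCA, the TATA box TATAAA, the CCAAT box CCAAT, the GC box GGGCGG, the homeodomain core TAATTA and the MAF core TGCTGA. Th held the cyclic AMP response element, beginning 45 bases before the start, and a GC box beginning 220 bases before it. Of 32851 RefSeq promoter windows of the same length, 1.55% held that response element and 32.7% a GC box.

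The enzymes of the steps from dopamine to noradrenaline and adrenaline were not detected. Dbh, which makes noradrenaline from dopamine, and Pnmt, which makes adrenaline, had 0 counts in all 4 libraries, where 3 counts would be 0.633 to 0.652 CPM. The noradrenaline transporter gene Slc6a2 was at or below 0.214 CPM in every library, and the dopamine transporter gene Slc6a3 had 0 counts. Of 11 sympathetic neuron markers 1, the defining gene Dbh, was at 0 in every library, 7 were tested and none was called, with 6 positive fold changes and 1 negative. Summed over that list, the WT libraries held 54.2 and 51.2 CPM and the KO libraries 54.2 and 84.7 CPM. The sum was highest in KO replicate 2 and about equal in the other 3 libraries. Taken singly, 2 of the 7 tested markers were higher in both KO libraries than in both WT libraries, as were 22.7% of all genes. The reverse held for 0 of the 7, against 22.3% of all genes. The Schwann and glial markers summed to 176 and 209 CPM in WT against 206 and 218 CPM in KO. In bulk islets, more cells of a type and more RNA per cell cannot be told apart, and the part of these markers in the Th values was not tested.

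Ddc encodes the decarboxylase shared by the dopamine and serotonin routes and lies on the minus strand of chromosome 11 (11814101 to 11898144). In WT it was at 256 CPM in replicate 1 and 222 CPM in replicate 2, against 140 and 142 CPM in KO. Both KO libraries were lower than both WT libraries, and the KO pair differed by less than 2 CPM. The means were 141 ± 1.35 CPM in KO and 239 ± 23.9 CPM in WT (SD, n = 2). Its log2 fold change of -0.76 ± 0.12 SE had the smallest p-value among the 5 tested genes, with an edgeR adjusted p of 0.0752. The log2 fold change ranged from -0.86 without WT replicate 2, where it was called (edgeR adjusted p = 0.00362), to -0.67 without WT replicate 1. DESeq2 called it (adjusted p = 0.000345). An antisense transcript, 1700042O10Rik, lies within the Ddc span and has no row of its own in the table, and the counting is not stated to use strand.

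RefSeq gives Ddc 2 start sites, and both windows are shown because the table sums them into 1 value. The upstream start is at 11898144 and the downstream start at 11890408, and their windows are chr11:11898145-11898394 and chr11:11890409-11890658 (minus strand, GRCm38.p6).
Ddc upstream promoter: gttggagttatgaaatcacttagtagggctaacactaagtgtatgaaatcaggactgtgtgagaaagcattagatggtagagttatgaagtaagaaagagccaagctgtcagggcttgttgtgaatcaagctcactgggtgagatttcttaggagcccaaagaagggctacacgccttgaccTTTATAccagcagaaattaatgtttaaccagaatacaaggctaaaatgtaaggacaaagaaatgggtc
Ddc downstream promoter: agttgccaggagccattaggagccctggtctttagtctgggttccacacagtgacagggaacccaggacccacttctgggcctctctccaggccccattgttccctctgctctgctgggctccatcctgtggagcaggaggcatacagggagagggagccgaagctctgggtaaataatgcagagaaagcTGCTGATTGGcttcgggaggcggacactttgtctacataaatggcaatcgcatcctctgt
The upstream window matched the TATA box on the opposite strand, beginning 68 bases before the start, a motif held by 12.4% of all windows. The downstream window held the MAF core, beginning 60 bases before the start and sharing its last base with a CCAAT box on the opposite strand. The MAF core was in 16.1% and the CCAAT box in 33.8% of all windows. Neither Ddc window held the cyclic AMP response element seen in the Th window, an element held by 1.55% of all windows. Whether any of these motifs bears on the fold changes was not tested.

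Maob and Maoa encode monoamine oxidases B and A, neighbours on the X chromosome that point toward each other with 21463 bases between their ends (Maoa 16619698 to 16687818 on the plus strand, Maob 16709282 to 16817366 on the minus strand). Maob was at 173 CPM in WT replicate 1 and 135 CPM in WT replicate 2, against 85.5 and 72.5 CPM in KO. Both KO libraries were lower than both WT libraries, although the WT pair itself was spread, at 154 ± 27.0 CPM against 79.0 ± 9.14 CPM in KO (SD, n = 2). The log2 fold change was -0.96 ± 0.16 SE with an edgeR adjusted p of 0.0878. It was called without KO replicate 1 (-1.10, edgeR adjusted p = 0.0489, with 0.419% of all genes called) and without WT replicate 2 (-1.13, edgeR adjusted p = 0.00105), and by DESeq2 (adjusted p = 0.000263), and was -0.78 without WT replicate 1.

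Maoa was at 17.3 and 8.88 CPM in WT against 10.6 and 12.8 CPM in KO. The WT libraries were the highest and the lowest of the 4, so the groups overlapped. The log2 fold change of -0.17 ± 0.37 SE was not called (edgeR adjusted p = 0.895), and it turned from -0.57 without WT replicate 2 to 0.38 without WT replicate 1. Per length, Maob exceeded Maoa in every library, with FPKM ratios of 14.5 and 10.2 in KO and 18.1 and 27.7 in WT. The mean ratio was 12.3 ± 3.04 in KO and 22.9 ± 6.82 in WT (SD, n = 2). The groups of ratios did not overlap, but an exact two-sided permutation test of 2 against 2 libraries cannot go below p = 0.333.

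Slc18a1, the vesicular monoamine transporter of endocrine and chromaffin cells, was at 21.0 and 17.1 CPM in WT against 18.4 and 20.6 CPM in KO. The groups overlapped fully, and the log2 fold change was 0.03 ± 0.22 SE (edgeR adjusted p = 0.974). The sign was negative in FPKM, at -0.080 by limma on log2(FPKM + 1), and the deposited FPKM ordered the libraries differently from the counts. WT replicate 2 had the lowest count of Slc18a1 and the highest FPKM, at 7.22 against 6.33 to 6.56 in the other libraries. Slc18a1 lies on the minus strand (69037711 to 69089235), and its start overlaps Atp6v1b2, a proton pump subunit gene on the other strand of chromosome 8, which had 1302 to 1634 scaled counts per library.

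Slc18a2, the transporter of monoamine neurons and of mast cells and platelets, lies on chromosome 19 (59260896 to 59296012) and was estimated at 0.06 to 0.07 fragments in each library, which is less than 1 read. Tph1 (chromosome 7, 46644641 to 46672537) was at 1 and 0 fragments in KO and 0 and 2 in WT. Tph2 (chromosome 10, 115078641 to 115185022) was at 0 in both KO libraries and at 1 and 3 in WT. Drd2 (chromosome 9, 49340627 to 49408177), a dopamine receptor that inhibits adenylyl cyclase, was at 0 and 1 fragments in KO and 0 and 2 in WT. No fold change is given for these 4 genes, and a difference between the genotypes was not detectable at this depth. Of 10 mast cell markers 8 were at 0 in all libraries, as was 1 of 6 platelet markers, and the platelet list summed to 2.82 to 4.02 CPM.

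By FPKM, which compares genes per length, Ddc was the highest of the 9 genes in both genotypes, at 73.0 ± 0.760 FPKM in KO and 125 ± 5.60 FPKM in WT. In WT it was followed by Maob (56.3 ± 9.55 FPKM), Th (15.6 ± 0.164 FPKM), Slc18a1 (6.88 ± 0.482 FPKM) and Maoa (2.64 ± 1.21 FPKM), and no neighbouring pair among these 5 overlapped in range. In KO the order was the same, but Maob (28.6 ± 3.95 FPKM) and Th (28.5 ± 2.32 FPKM) did not differ beyond their spread. The 4 low genes followed, all under 0.4 FPKM in every library, and their order was not resolved. The FPKM ratio of Ddc to Th, chosen after the values were seen, was 2.44 and 2.70 in KO and 8.38 and 7.75 in WT.

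**Figure D2:**
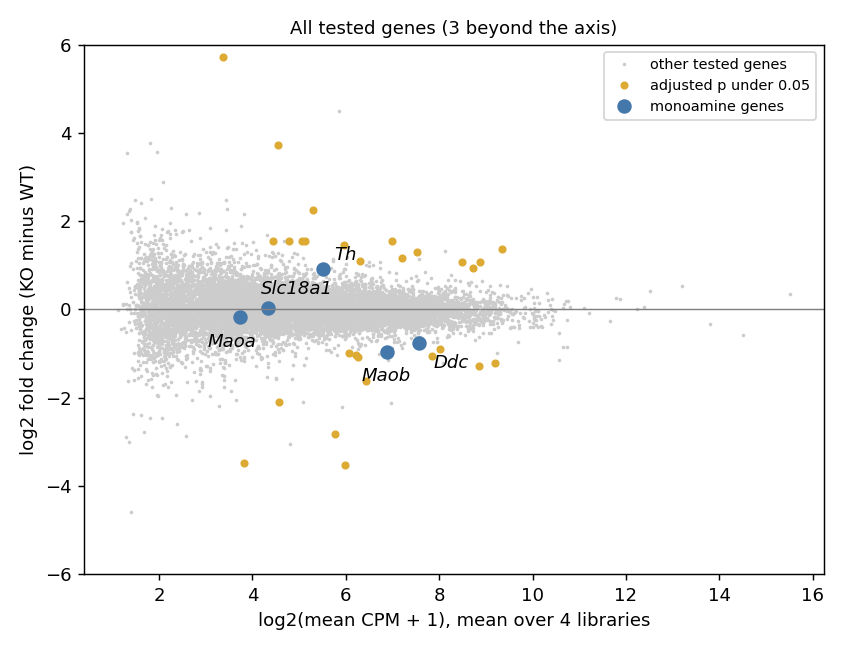
Log2 fold change (y axis, KO minus WT) against log2(mean CPM + 1) for the 12789 tested genes, with the 5 tested monoamine genes in blue and genes at an adjusted p under 0.05 in orange. Th lies at the upper edge and Ddc and Maob at the lower edge of the grey cloud at their level, and Maoa and Slc18a1 lie inside it; 3 genes fall beyond the y axis.

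Beta cell markers were mixed. The 10 markers summed to 63713 and 47029 CPM in WT against 45055 and 46598 CPM in KO, 8 of 10 had a negative fold change, and Mafa and Nkx6-1 were called lower. KO replicate 2 and WT replicate 2 were close in that sum. DESeq2 called 5 of the 10, against 1.20% of all genes. Of these, Mafa, Nkx6-1, Ins2 (-0.58) and Slc2a2 (-0.53) were lower in KO and Iapp was higher. Ins2 and Slc2a2 were not called by edgeR. Against the direction of most of the 10 markers, and named after their values were seen, were Iapp and Slc30a8. Iapp was at 7817 and 7683 CPM in WT against 10597 and 11705 CPM in KO (0.52, called by DESeq2 and not by edgeR). Slc30a8 was at 0.24 (not called). The 3 PP and epsilon cell markers summed to 1139 and 946 CPM in WT against 2076 and 1444 CPM in KO, and of these Ppy was called higher while Pyy (0.26) and Ghrl (0.99) were not called. Alpha cell markers, none called, summed to 42074 and 44227 CPM in WT against 48147 and 60733 CPM in KO. Immune markers, none called, had 5 of 5 tested genes positive (median 0.70) and summed to 94.0 and 55.2 CPM in WT against 149.8 and 91.7 CPM in KO, with KO replicate 2 below WT replicate 1. WT replicate 1, the highest library for Ddc, Maob and Maoa, was also the highest in the beta, acinar (6129 CPM against 2799 to 5554 CPM) and mesenchymal (1738 CPM against 692 to 985 CPM) sums. The part of these markers in the monoamine genes was not tested. The genes whose 4 library values were most like those of Ddc, among 8963 compared by the root mean square difference of centred log2(CPM + 1), were Gcat (0.0386), Nasp (0.0424) and Ift172 (0.0586), and none of these 3 was called.

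The other genes of monoamine pathways were read from 12 lists holding 103 genes, of which 57 were tested. None was called by edgeR (0 of 57, against 0.227% of all genes), and 11 had an unadjusted p under 0.05 (12.6% of all genes had). DESeq2 called 1 of the 57, Slc16a10, against 1.20% of all genes. Of the 57, 23 were positive and 34 negative, with a median log2 fold change of -0.11 where the median over all tested genes was 0.00461.

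Among the genes that supply synthesis, the tetrahydrobiopterin cofactor list had 3 positive and 4 negative of 7 tested (median -0.16), with the regenerating enzymes Pcbd1 at -0.23 and Qdpr at -0.32 on the log2 scale. Aromatic amino acid transporters had 2 positive and 3 negative of 5 tested (median -0.22). The largest level there was that of Slc16a10, which carries tyrosine and tryptophan and was at 521 and 497 CPM in WT against 715 and 778 CPM in KO. Both KO libraries were higher for Slc16a10, with a log2 fold change of 0.55 ± 0.11 SE that edgeR did not call (adjusted p = 0.140) and DESeq2 did. Slc43a2 was at 0.13 on the log2 scale. Of the negative members, named after their values were seen, Slc7a8 was at 223 and 199.6 CPM in WT against 160 and 163 CPM in KO (-0.39, edgeR adjusted p = 0.245).

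For storage, the vesicle proton pump that drives amine uptake had 14 of 14 subunit genes tested, 4 positive and 10 negative (median -0.11), with Atp6v0c at -0.08 and Atp6v1b2 at -0.30. For uptake, 1 of 7 plasma membrane transporter genes was tested, the low-affinity carrier Slc29a4 (-0.14), and 3 were at 0 in all libraries. For breakdown, aldehyde handling genes had 2 positive and 5 negative of 7 tested (median -0.16), with Akr1a1 at -0.16 and Aldh3a2 at -0.11.

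Receptor genes were mostly low. Of 4 other dopamine and trace amine receptor genes with rows 1 was tested, Taar1 (0.22), and Drd4 and Drd5 were at 0 in all libraries. Of 9 adrenergic receptor genes 4 were tested, with Adra2a, which inhibits insulin secretion, at 142 and 82.7 CPM in WT against 96.9 and 82.8 CPM in KO (-0.32). Of 14 serotonin receptor genes 1 was tested, the ion channel subunit gene Htr3a, and 6 were at 0 in all libraries. Htr3a rested on 16 and 6 fragments in WT against 15 and 22 in KO, and the groups overlapped. Its log2 fold change was 0.90 ± 0.61 SE (edgeR adjusted p = 0.591). Histamine and melatonin genes had 2 tested of 11, Hdc (-0.45 ± 0.68 SE) and Hnmt (0.79 ± 0.60 SE). Both rested on only 6 to 16 fragments per library and were not called.

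Of 11 transcription factor genes of monoamine cells 7 were tested (4 positive, 3 negative, median 0.03), with Insm1 at 0.03 and Fev, a serotonergic factor, at -0.19. Lactogen signalling, which lies upstream of Tph1 in pregnancy, had 3 positive and 4 negative of 7 tested (median -0.29). Its receptor genes Ghr (0.30) and Prlr (-0.29) were not called. Socs2, a feedback inhibitor of that signalling named after its values were seen, was at 40.3 and 43.8 CPM in WT against 68.6 and 74.3 CPM in KO (0.76 ± 0.14 SE, edgeR adjusted p = 0.111). Enterochromaffin and gut markers, the remaining monoamine cell list, summed to 988 and 963 CPM in WT against 909 and 1122 CPM in KO, almost all of it Chgb, which islet cells also express.

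**Figure D3:**
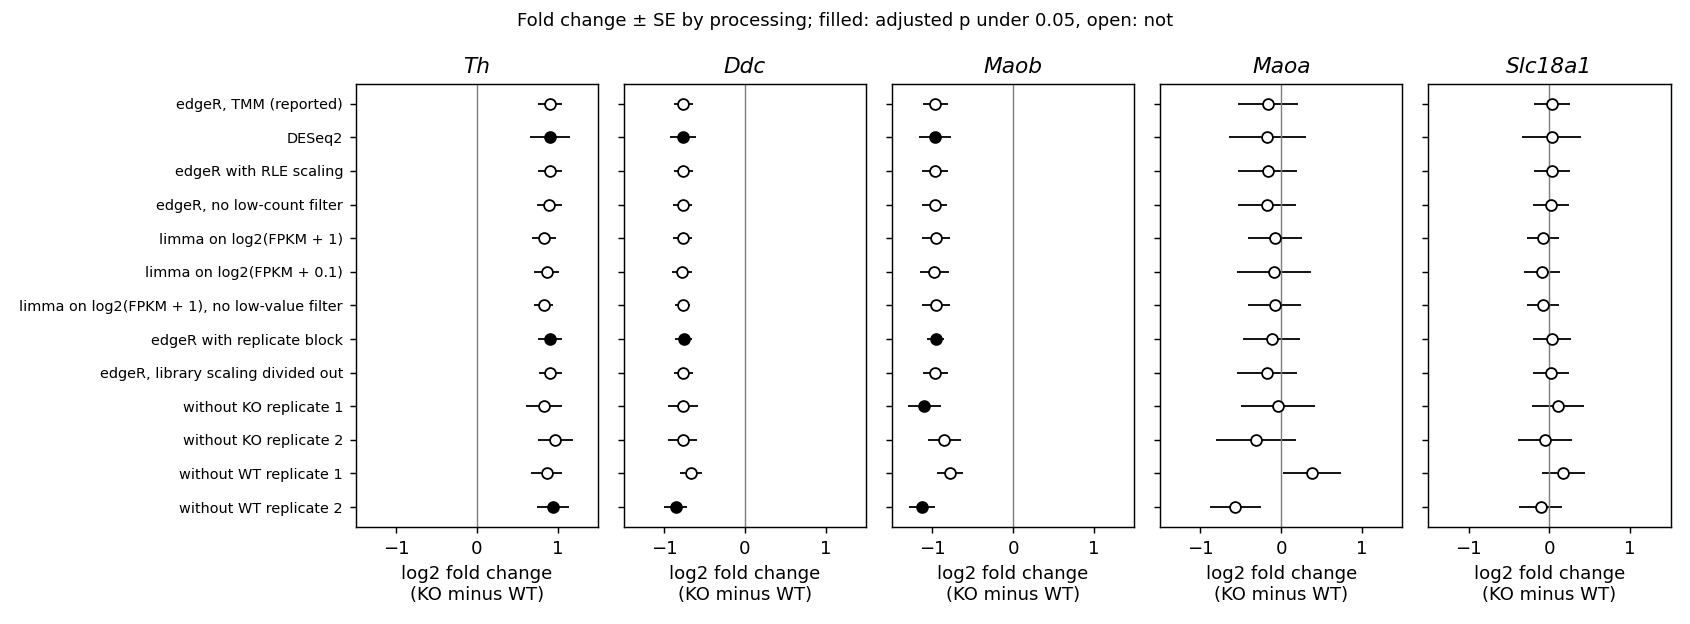
Log2 fold change (x axis, KO minus WT, ± SE) of the 5 tested monoamine genes under the reported edgeR fit and 12 alternatives (rows); filled circles have an adjusted p under 0.05. Th stays to the right of 0 and Ddc and Maob to the left in all rows, with filled circles in 3 alternatives for Th and Ddc and 4 for Maob.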

How the data were processed

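Strand-specific libraries of ribosomal-RNA-depleted islet RNA were sequenced as 150-base paired ends, per the labels' protocols. Cutadapt 1.9.3, HISAT2 2.0.4, Cufflinks, Cuffdiff and build mm10 are named in the submitters' processing notes; no source used here gives the annotation or how fragments were counted. The authors deposited estimated counts and FPKM values per gene, per the file headers. The deposited estimated counts had been scaled per library: 94.2% to 94.9% of the values under 50 fragments were whole multiples, within 0.1, of a library's step. The 79 symbols with several rows were summed, counts rounded, filtered with filterByExpr and fitted with edgeR 4.0.16 in R 4.3.3 (TMM, genotype only). DESeq2 1.42.0, limma 3.58.1 on log2(FPKM + 1), other filters and scalings and leaving out each library were alternatives. The members, lists and named genes (called list genes, otherwise the 2 tested with the highest mean FPKM; for the member with the smallest p, the 3 most similar genes with a mean FPKM of at least 5 and no predicted name) were chosen with earlier results of these data known; genes outside this rule were named after their values were seen. Coordinates are from GENCODE M21 (GRCm38, which is mm10); 7 of the 9 genes have a RefSeq promoter window. Some genes that the lists name are not reported here. Floors of 3 counts cover counting error only. The fit was tested on simulated counts.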

Additional observations from a re-analysis of the deposited data

How the results depend on the processing

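Th, Ddc and Maob kept their direction in all 12 alternatives and Maoa in 11. With DESeq2 the log2 fold changes past the threshold were 0.90 for Th, -0.77 for Ddc and -0.97 for Maob. Replicate numbers are shared by the labels, but nothing says that they pair the pools, and the same-numbered deviations correlated at 0.185 across genes. With a replicate block the same 3 genes passed, at 0.91 (adjusted p = 0.0222), -0.76 (adjusted p = 0.0112) and -0.96 (adjusted p = 0.00422). Leaving out single libraries gave 0.83 to 0.97 for Th, -0.86 to -0.67 for Ddc, -1.13 to -0.78 for Maob, -0.57 to 0.38 for Maoa and -0.11 to 0.17 for Slc18a1. Slc18a1 turned to -0.080 in limma on log2(FPKM + 1), with and without the filter, and to -0.091 with a pseudocount of 0.1. The number of the 9 genes called was 0 in the reported fit, 3 with DESeq2, 3 with the replicate block and 0 to 3 without single libraries. For other monoamine pathway genes it was 0, 1 with DESeq2, 2 with the block (Slc16a10 and Socs2) and 0 to 2 without single libraries. Over all genes the 29 calls became 154 with DESeq2, 214 with the block, 0 in each limma fit, and 55 and 10 without KO replicates 1 and 2 and 87 and 245 without WT replicates 1 and 2. The limma fit on log2(FPKM + 1) had 1367 genes at an unadjusted p under 0.05. The ratio of Maob to Maoa by counts per base of merged exons was 10.2 in KO and 18.9 in WT, within 1 SD of the FPKM ratios. The cause of these differences was not tested, and 2 libraries a group and the low counts of Tph1, Tph2, Slc18a2 and Drd2 limit what can be seen.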
